A study of Mus musculus with 14 samples.

Results

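The regions described here are 1964 bins of 10 kb that carried an H3K4me3 peak in mouse embryonic stem cells (ESCs) but not in neural precursor cells (NPCs), although they took part in called chromatin contacts of both. They were selected on a peak flag that the authors' loop lists give for each anchor (each end of a contact): flag 1 wherever the bin was an anchor in ESC lists, flag 0 wherever it was one in NPC lists. They made up 5.39% of the 36441 bins that were anchors in both cell types, out of 75103 anchor bins in the series. Of the other bins seen in both cell types, 13146 were flagged in both, 20774 in neither and 557 in NPCs only. A further 2441 bins flagged in ESCs were in no NPC list and are not counted among the 1964.

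H3K4me3 PLAC-seq enriches ligated fragments that carry trimethylated lysine 4 of histone H3, so it reports the contacts of active promoters and other marked chromatin. All cells were of the mouse line F123, whose CTCF carries an auxin-inducible degron (AID), also in the controls. The groups were NPCs differentiated with auxin and collected on day 4 (NPC auxin), NPCs differentiated without auxin and collected on day 4 (NPC control), ESCs after 48 h of auxin (ESC auxin) and ESCs at 0 h of auxin (ESC control). Each group had 2 samples but 1 list per caller, so no difference below has a replicate check and no p-value is given. Intervals are exact Clopper-Pearson 95% intervals and cover counting error only. Another 6 samples, from 3 groups with dCas9, are left out here.

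H3K4me3 is best known at the start sites of active genes, and strong, stable H3K4me3 is typical of promoters rich in CpG dinucleotides. Weaker H3K4me3 also occurs at active enhancers and at CpG-poor promoters that are used in few cell types. CTCF stops the loop-extruding cohesin ring and thereby anchors many long-range contacts, and its loss lets contacts spread past boundaries.

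The promoters found in the 1964 bins were poor in CpG. In 300-base windows from 250 bases before to 50 bases after the start, taken from RefSeq for GRCm38.p6, the 181 windows of 150 protein-coding genes in these bins held a median of 5.00 CpG (quartiles 4 and 8). The 8697 coding windows in bins flagged in both cell types held 21.0 (13.0 and 29.0). The ratio of observed to expected CpG was 0.24 (quartiles 0.17 and 0.37) in bins flagged in ESCs only and 0.76 (0.57 and 0.91) in bins flagged in both. A ratio above 0.6 was found in 4.97% of the windows in bins flagged in ESCs only, in 71.8% of those in bins flagged in both and in 48.9% of all coding windows. The coding windows in bins flagged in neither cell type (0.21) and in NPCs only (0.31) also had low ratios, so the bins flagged in ESCs only stood apart from the bins flagged in both and not from these. The start in the bin was an inner one, more than 1 kb from the 5′ end of the gene, for 33 of the 150 genes, and 20 of these 33 had their 5′ end in a bin flagged in both. With starts at the 5′ end alone, an alternative added after the data were seen, the ratio was 0.24 in bins flagged in ESCs only (132 windows) and 0.77 in bins flagged in both. GC content differed less, with a median of 55.7% in bins flagged in ESCs only and 61.7% in bins flagged in both.

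The 250 bases before the start are shown for the first 6 genes by number of ESC control loops (Sgk1, tied with Pou2f2 at 17 loops, is not shown), and for Lif, which encodes a cytokine that keeps mouse ESCs undifferentiated. Il6st, which encodes the signalling subunit gp130 of the LIF receptor, has its start in a bin flagged in both cell types and is given for contrast; it and Lif were added after their values were seen. CpG dinucleotides are in capitals and each sequence runs 5′ to 3′ towards the start. Gm26562 is at chr16:30206575-30206824, minus strand. AI467606 is at chr7:127091186-127091435, plus strand. Gm40231 is at chr4:117319431-117319680, minus strand. Gm15969 is at chr4:148917855-148918104, minus strand. 2610028E06Rik is at chr4:125922404-125922653, minus strand. Pou2f2 is at chr7:25132461-25132710, minus strand. Lif is at chr11:4257318-4257567, plus strand. Il6st is at chr13:112463820-112464069, plus strand.
Gm26562: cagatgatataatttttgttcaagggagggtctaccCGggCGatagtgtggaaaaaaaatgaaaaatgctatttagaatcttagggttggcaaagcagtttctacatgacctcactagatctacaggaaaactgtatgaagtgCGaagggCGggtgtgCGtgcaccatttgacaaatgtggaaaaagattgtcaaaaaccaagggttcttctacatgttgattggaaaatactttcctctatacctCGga
AI467606: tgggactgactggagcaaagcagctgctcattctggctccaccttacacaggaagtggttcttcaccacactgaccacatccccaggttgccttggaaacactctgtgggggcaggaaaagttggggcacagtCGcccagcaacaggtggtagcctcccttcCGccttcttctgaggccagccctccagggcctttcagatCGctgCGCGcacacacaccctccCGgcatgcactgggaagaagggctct
Gm40231: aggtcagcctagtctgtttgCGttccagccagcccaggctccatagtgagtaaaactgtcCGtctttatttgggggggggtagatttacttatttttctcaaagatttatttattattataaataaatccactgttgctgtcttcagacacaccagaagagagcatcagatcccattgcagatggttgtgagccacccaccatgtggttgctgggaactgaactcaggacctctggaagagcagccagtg
Gm15969: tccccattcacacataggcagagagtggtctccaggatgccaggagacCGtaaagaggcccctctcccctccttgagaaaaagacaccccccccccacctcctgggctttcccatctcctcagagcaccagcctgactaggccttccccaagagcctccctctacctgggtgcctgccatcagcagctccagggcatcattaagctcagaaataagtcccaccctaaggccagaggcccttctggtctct
2610028E06Rik: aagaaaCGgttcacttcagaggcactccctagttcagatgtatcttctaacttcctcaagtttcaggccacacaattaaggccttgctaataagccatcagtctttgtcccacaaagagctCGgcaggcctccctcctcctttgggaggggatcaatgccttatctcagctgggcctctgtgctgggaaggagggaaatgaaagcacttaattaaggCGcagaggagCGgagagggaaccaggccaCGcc
Pou2f2: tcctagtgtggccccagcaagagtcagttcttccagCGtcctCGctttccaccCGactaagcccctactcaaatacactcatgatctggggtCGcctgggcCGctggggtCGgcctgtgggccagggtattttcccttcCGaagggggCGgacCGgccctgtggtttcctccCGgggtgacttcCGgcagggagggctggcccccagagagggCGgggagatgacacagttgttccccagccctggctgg
Lif: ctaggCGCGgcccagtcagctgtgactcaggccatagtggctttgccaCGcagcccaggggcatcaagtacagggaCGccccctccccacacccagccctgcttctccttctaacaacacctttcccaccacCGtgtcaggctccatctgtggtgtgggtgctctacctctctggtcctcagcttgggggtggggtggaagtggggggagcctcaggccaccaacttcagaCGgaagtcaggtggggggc
Il6st: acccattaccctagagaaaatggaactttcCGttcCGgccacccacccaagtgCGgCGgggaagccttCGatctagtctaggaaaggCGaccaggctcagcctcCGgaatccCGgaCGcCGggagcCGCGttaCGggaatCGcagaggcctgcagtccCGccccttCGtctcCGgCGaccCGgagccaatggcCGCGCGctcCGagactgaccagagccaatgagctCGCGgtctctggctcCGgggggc
The 7 windows from bins flagged in ESCs only held between 1 CpG (Gm15969) and 12 CpG (Pou2f2), and Lif held 6. The Il6st window held 26, with an observed over expected ratio of 0.96 against 0.24 for Lif. Gm26562 had a ratio of 0.61 with 6 CpG and a GC content of 40.4%. The start shown for Pou2f2 is an inner one of that gene.

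The motifs below were searched on both strands of the 300-base windows. The octamer ATGCAAAT, a site of POU factors such as OCT4, was in 0 of the 181 coding windows in bins flagged in ESCs only, and in 1.67% of all coding windows. It was also in 0 of 41 coding windows in bins flagged in NPCs only, and in 1.18% of those in bins flagged in neither. In windows of long non-coding genes in bins flagged in ESCs only it was in 5 of 208 (2.40%), against 1.87% of all such windows. CCCCACCC, which KLF factors bind, was in 17.7% of the coding windows in bins flagged in ESCs only and in 11.1% of all. It was in 13.2% of those in bins flagged in both, 9.32% in neither and 12.2% in NPCs only. The TATA box TATAAA was in 13.8% of the coding windows in bins flagged in ESCs only, against 6.84% in bins flagged in both and 12.7% of all. The share was 14.6% in bins flagged in neither and 14.6% in bins flagged in NPCs only, so it was not particular to these bins. In bins flagged in ESCs only the E-box CACGTG was in 6.63% of coding windows, against 7.89% of all. AGGGGGCGC, a core of the CTCF site, was in 1.10% of them and in 1.77% of all. These are matches of letters, which show no binding.

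**Figure D1:**
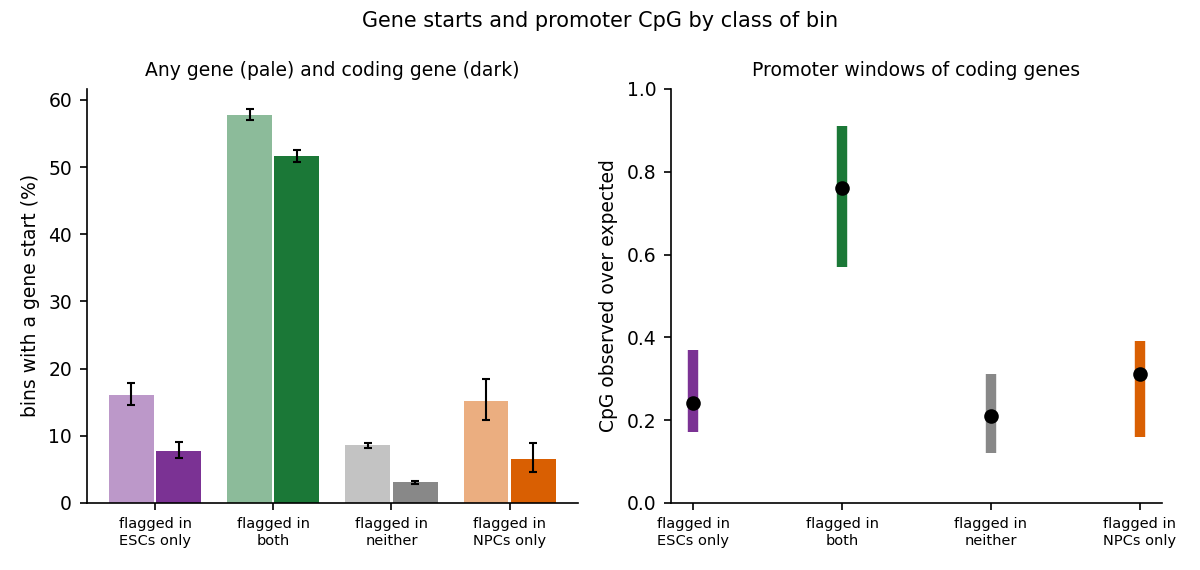
Left, share of bins (%) with a gene start (pale) or protein-coding gene start (dark) by the peak flag of the bin, with exact 95% intervals. Right, median (point) and quartiles (bar) of the observed over expected CpG ratio in 300-base windows of coding genes; bins flagged in ESCs only had 0.24 and bins flagged in both 0.76.

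Most of the 1964 bins lay away from gene starts. Off chromosome 18, for which no windows were used, 307 of 1903 bins (16.1%, 14.5 to 17.9) held a gene start and 148 (7.78%, 6.61 to 9.07) a protein-coding one. Bins flagged in both cell types held a gene start in 57.8% and a coding start in 51.6%, and bins flagged in neither in 8.57% and 3.03%. A further 53.4% of the bins flagged in ESCs only lay within a coding gene but held no start, and 30.4% held neither a start nor a coding gene body. The median distance to the nearest coding start was 28.5 kb in bins flagged in ESCs only, 4.81 kb in bins flagged in both and 40.3 kb in bins flagged in neither. The windows cover 16457 of 20665 autosomal coding genes, so these shares are low estimates. Counting an end of any gene in place of a start gave 40.8% of the bins flagged in ESCs only and 76.1% of the bins flagged in both. The 327 genes with a start in these bins were 150 coding and 177 long non-coding ones, and 21 of the coding genes had a further start in a bin flagged in both cell types.

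The bins were scattered: they formed 1732 runs, gaps of up to 1 bin allowed, of which 1527 were single bins and 23 held 3 or more. The run with the most of these bins, 5 of them at chr11:4220001-4280000, spans Castor1, an arginine sensor of the mTORC1 pathway, Lif and Osm, which encodes the related cytokine oncostatin M. These bins had 22 loops in NPC auxin, 18 in NPC control, 37 in ESC auxin and 35 in ESC control. A run of 4 bins over Pou2f2 had 2, 5, 9 and 36 loops in the same order of lists. Chromosome 11 had the largest share of its bins flagged in ESCs only (6.80%) and chromosome 13 the smallest (3.75%). An adjacent bin was flagged in an NPC list for 41.9% of the bins flagged in ESCs only, which left 1141 with no NPC flag on either side.

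The flag is a call and does not give the amount of signal in a bin. The MAPS lists also hold the short-range reads of each anchor bin, the caller's measure of enrichment there. Their median in the bins flagged in ESCs only was 301 in NPC auxin, 258 in NPC control, 277 in ESC auxin and 206 in ESC control. In bins flagged in both the medians were 703, 635, 389 and 305, and in bins flagged in neither 257, 220, 216 and 153. Lists differ in depth, so the NPC value is read against other bins: only 3 of 1794 bins flagged in ESCs only (0.167%) exceeded the NPC control median of bins flagged in both, while 216 of 1832 (11.8%) did so in ESC control. Against the median of bins flagged in neither, 72.9% were higher in NPC control and 82.1% in ESC control. The flag was set with these cells' H3K4me3, so the levels are a description.

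The ratio of short-range reads in NPC control over ESC control had a median log2 value of 0.32 (quartiles 0.14 and 0.50) in the bins flagged in ESCs only and 0.61 over all anchor bins. Of these bins, 87.6% lay below the median of all bins, against 23.7% of the bins flagged in both, whose median was 0.98. The median was 0.52 in bins flagged in neither and 0.54 in bins flagged in NPCs only. The reads covering each anchor in the FitHiChIP lists, divided by each list's total contacts, gave a median log2 ratio of -0.22 in the bins flagged in ESCs only and 0.28 in bins flagged in both.

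**Figure D2:**
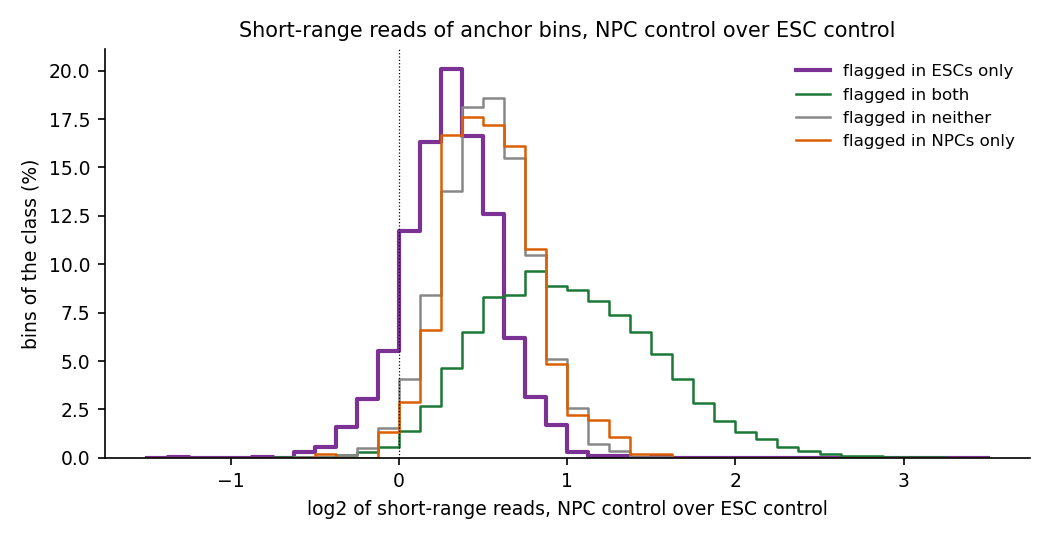
Distribution of the log2 ratio of short-range reads, NPC control over ESC control, for bins of each flag class (x axis in log2 units, y axis in % of the class, end classes hold values beyond them). The bins flagged in ESCs only centre at 0.32, left of the other 3 classes, and overlap with them.

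With auxin the short-range reads of these bins moved with those of other bins. The median log2 ratio of NPC auxin over NPC control was 0.20 in bins flagged in ESCs only and 0.15 over all anchor bins. For ESC auxin over ESC control it was 0.35 in bins flagged in ESCs only and 0.32 over all. The peak flags of a cell type are the same with and without auxin, so they carry no information on H3K4me3 after CTCF loss.

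In the MAPS lists bins flagged in ESCs only had nearly as many loops in ESC control as bins flagged in both, and fewer in NPC lists. In the FitHiChIP lists they also had fewer in ESCs, with means of 1.99 against 2.60 in ESC control and 0.982 against 1.65 in ESC auxin. A loop is a called pair of bins, and the MAPS lists, which were the main ones, held 41667 loops in NPC auxin, 82861 in NPC control, 27610 in ESC auxin and 56714 in ESC control. A bin flagged in ESCs only had on average 1.01, 1.99, 1.94 and 4.36 loops in these lists in the same order. Bins flagged in both had 3.59, 6.67, 2.44 and 4.52. Bins flagged in neither had 0.866, 1.82, 0.677 and 1.61. Loops at bins flagged in ESCs only made up 4.74% of NPC auxin, 4.72% of NPC control, 13.4% of ESC auxin and 14.7% of ESC control loops. In ESC control 218 of the 1964 bins had 10 or more loops, the highest 31, and 132 had none. In NPC control 7 had 10 or more, the highest 14, and 170 had none.

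**Figure D3:**
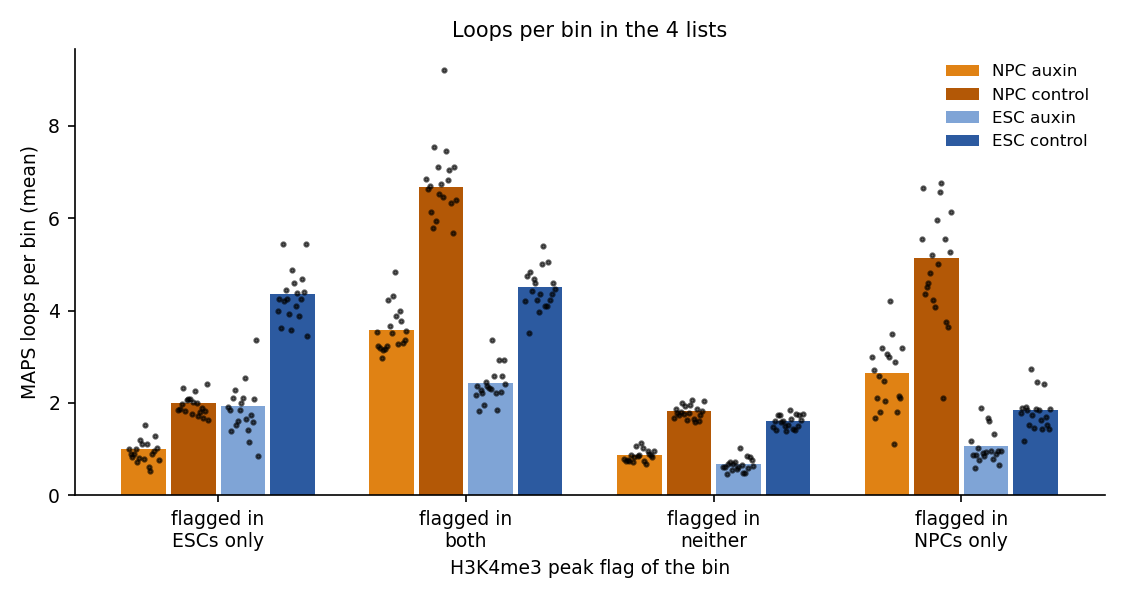
Mean MAPS loops per bin (bars) by flag class and list, with the mean of each of the 19 autosomes (points). The bins flagged in ESCs only had 4.36 loops in ESC control and 1.99 in NPC control, while bins flagged in both had 4.52 and 6.67.

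The NPC number is limited by how the lists are built. Every listed loop has a flagged anchor, so in NPC lists a bin flagged in ESCs only can pair only with a flagged bin, whereas in ESC lists it can pair with any bin. In NPC auxin and NPC control, 93.1% and 92.3% of its partners were bins flagged in both cell types. In ESC auxin 47.1% and in ESC control 37.6% of its partners were, while 32.1% and 38.7% were bins flagged in neither. Another bin flagged in ESCs only was the partner in 5.30% of loop ends in ESC auxin and 5.59% in ESC control.

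Counting only partners flagged in both cell types makes the same partners possible in every list, but the selection remains. To be selected, a bin flagged in ESCs only needed a flagged partner in an NPC list, while any partner sufficed in an ESC list. Bins flagged in both had no such requirement. The numbers may therefore lean towards NPCs, which was not tested. The bins flagged in ESCs only then had 1838 loop ends in NPC auxin, 3612 in NPC control, 1793 in ESC auxin and 3215 in ESC control. The NPC control number was 1.12 times that of ESC control, against 1.24 times for bins flagged in both and 1.22 times for bins flagged in neither. By bin, 470 of the 1964 had fewer such loops in NPC control than in ESC control, 736 as many and 758 more. A 2-fold change in all loops of a bin, relative to the change of the whole lists, was looked for in bins whose loops in the lists compared numbered 5 or more. In NPC control against ESC control 770 of 1053 bins flagged in ESCs only were lower (73.1%) and 1 was higher, while over all anchor bins 19.0% were lower and 12.1% higher. The rule and the lists fix this contrast, and nothing is read from it.

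For contacts between these bins and marked partners, the share called in both cell types was close to that of other bins in the MAPS lists and lower in the FitHiChIP lists. The same selection bears on these shares, since each bin had to be an NPC anchor with a flagged partner. Of 3215 ESC control loops between a bin flagged in ESCs only and a bin flagged in both, 1966 were also called in NPC control (61.2%, 59.4 to 62.8). The share was 63.3% for loops between bins flagged in both and 67.8% for loops between a bin flagged in neither and one flagged in both. Of the 1482 bins flagged in ESCs only with such a partner in ESC control, 77.9% (75.7 to 80.0) had at least 1 of these partners in NPC control too, against 74.6% (73.7 to 75.5) of bins flagged in both and 79.2% of bins flagged in neither. The order of the loop shares turned under other MAPS settings: with a tolerance of 1 bin they were 84.3% for bins flagged in ESCs only and 82.2% for bins flagged in both, and with 1 loop per cluster 30.9 and 29.6%. For bins in all 4 lists they were 66.5 and 63.3%. In the FitHiChIP lists the share of loops was 25.4% of 2487 for bins flagged in ESCs only and 67.8% for loops between bins flagged in both. The callers thus differ on this comparison, and the cause was not tested. Over all partners 24.8% of 8317 ESC control loops were also called in NPC control, with 0 of 3786 for unflagged NPC anchors, which follows from the construction of the lists.

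At loops shared by NPC control and ESC control, the contact count of the loops at bins flagged in ESCs only had a median log2 ratio of -0.19 after centring on all shared loops (2059 loops). It was 0.00 before centring, and 0.02 in the FitHiChIP lists after centring. The contact counts therefore gave no direction that both callers share.

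The number of loops of these bins was lower with auxin, as it was for the whole lists, and in the MAPS lists by about as much. Loop ends in NPC auxin were 0.505 times those in NPC control at the bins flagged in ESCs only, against 0.503 over all loops. In ESC auxin they were 0.445 times those in ESC control, against 0.487 over all loops, 0.539 at bins flagged in both and 0.420 at bins flagged in neither. Both ratios were below 1 on each of the 19 autosomes. The FitHiChIP lists gave lower ratios for these bins, 0.295 against 0.553 over all loops in NPCs and 0.494 against 0.678 in ESCs. In the MAPS lists of NPCs 1310 of 1964 bins (66.7%) had fewer loops with auxin, against 73.1% of bins flagged in both and 66.9% of bins flagged in neither. In ESCs 1474 (75.1%) had fewer, against 69.8% and 70.6% of these classes.

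Against the whole lists, the share of these bins past 2-fold was near that of all bins. In NPC auxin against NPC control 37 of 367 bins flagged in ESCs only (10.1%) were 2-fold lower, with 13.6% of all anchor bins lower. In the other direction 74 (20.2%) were higher, with 17.0% of all bins higher. In ESC auxin against ESC control 168 of 954 (17.6%) were lower, with 13.6% of all lower, and 174 (18.2%) were higher, with 24.1% of all higher. The shares of the bins flagged in ESCs only lie within 6 percentage points of the background in each direction at this setting. The gap was wider under others: among 53 bins with 10 or more loops 28.3% were higher in NPC auxin, against 15.1% of all, and 0% were lower, against 11.4%. At 1.5-fold 26.1% were lower in ESC auxin, against 19.5% of all, and 30.7% were higher, against 40.6%. With FitHiChIP the share lower in ESC auxin was also more than 6 points above the 11.5% of all bins.

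In the MAPS lists the same loops were found again with auxin at a share close to that of other loops when all loops were pooled, but not by number of flagged anchors. Of 3914 NPC control loops at bins flagged in ESCs only, 28.6% (27.2 to 30.0) were also in NPC auxin, against 26.9% of other loops. Of 8317 ESC control loops, 22.5% (21.6 to 23.4) were also in ESC auxin, against 22.9% of other loops. The NPC loops at bins flagged in ESCs only all had a single flagged anchor, and of other such loops a lower share, 23.9%, was found again. In ESCs the shares were lower than at other loops, 29.4% against 33.8% with both anchors flagged and 17.1% against 19.6% with a single one. Per autosome the share ranged between 18.7 and 39.1% in NPCs and between 11.4 and 30.9% in ESCs, and it exceeded that of other loops on 9 and 8 of the 19. With partners flagged in both, the NPC share was 29.4% at bins flagged in ESCs only, 41.6% at bins flagged in both and 30.5% at bins flagged in neither. The ESC share with such partners was 30.6% at bins flagged in ESCs only, 36.7% at bins flagged in both and 22.6% at bins flagged in neither. In the FitHiChIP lists the shares at bins flagged in ESCs only were lower than at other loops, 20.4% against 36.1% in NPCs and 29.3% against 45.1% in ESCs. At MAPS loops found again the contact counts changed about as at all such loops, with centred median log2 ratios of -0.01 in NPCs and -0.02 in ESCs. Before centring they were -0.08 and -0.13. In the FitHiChIP lists the centred values were -0.09 and -0.10.

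**Figure D4:**
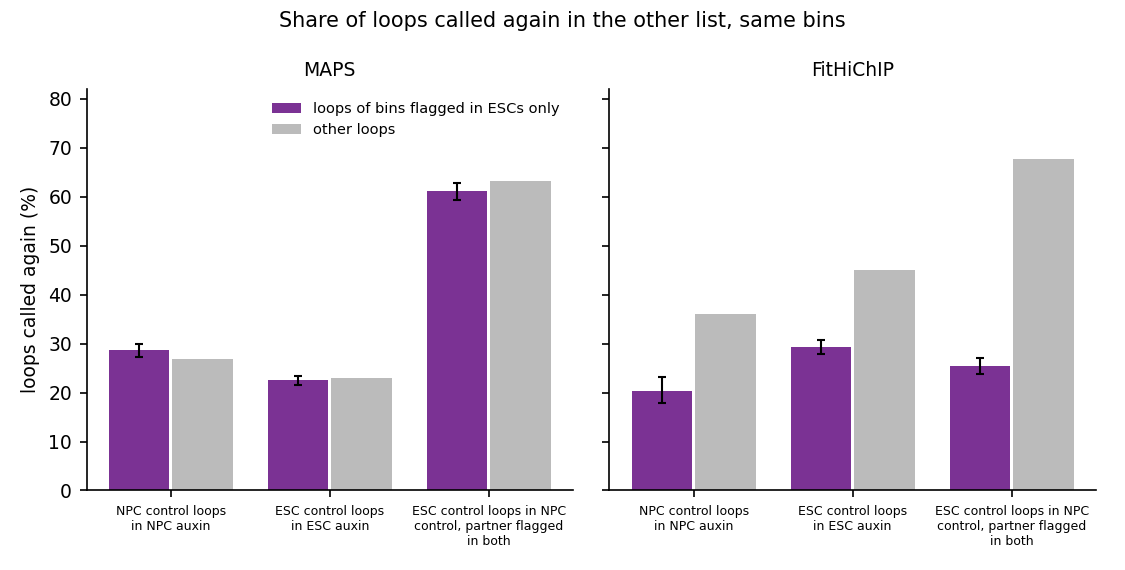
Share (%) of control loops called again in another list between the same bins, for loops of bins flagged in ESCs only (with exact 95% intervals) and for other loops (in the rightmost pair, loops between bins flagged in both), in the MAPS and FitHiChIP lists. The MAPS shares of the rightmost pair were 61.2 and 63.3%, those of FitHiChIP 25.4 and 67.8%.

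Loops of these bins spanned a median of 260 kb in NPC auxin, 220 kb in NPC control, 240 kb in ESC auxin and 220 kb in ESC control. Loops of bins flagged in both spanned 300, 260, 240 and 230 kb in the same order. In all, 12282 different loops touched a bin flagged in ESCs only. Of these 5072 (41.3%) were in ESC control alone and 497 (4.05%) in all 4 lists. The construction of the lists bears on these counts, since a pair with no anchor flagged in NPCs cannot be in an NPC list. The same shares over all loops were not computed, so nothing is read from these counts.

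Among the bins with a coding gene start, several had many ESC loops and few NPC loops. Pou2f2 encodes OCT2, a POU transcription factor of B cells, and its start bin had 1, 3, 6 and 17 loops in NPC auxin, NPC control, ESC auxin and ESC control. This start is an inner one, and the 5′ end of the gene lies in the partner bin of its strongest contact, 50 kb away and flagged in both cell types. That contact was listed in all 4 lists, with 103, 124, 123 and 126 reads. The bin with an inner start of Sgk1, a kinase induced by serum and glucocorticoids, had 1, 1, 11 and 17 loops. Sgk1 has 6 starts in the table, and the 5′ end of the gene lies in another bin, flagged in both. AI467606, a coding gene with no role given here, had 1, 7, 4 and 20 loops. Thrsp, a regulator of fatty acid synthesis, had 1, 1, 7 and 15, and Urah, an enzyme of urate breakdown, 5, 6, 5 and 16. In these 5 bins ESC control had the most loops, but they were named for their many ESC control loops.

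Other starts also had several loops in NPC control. The bin of Tnnt1, which encodes the troponin T of slow skeletal muscle, had 8, 12, 7 and 11 loops, with partners as far as 900 kb away in ESC control. The bin of Ston2, an adaptor protein of endocytosis, had 4, 6, 8 and 14. The bin of Csk, the kinase that inhibits Src family kinases, had 1, 5, 7 and 8. The bin of Lif had 8, 7, 14 and 9 loops, with more in ESC auxin than in ESC control. Its partners in NPC lists included the bins of Nf2, Uqcr10 and Zmat5, which were also partners in ESC auxin and not in ESC control, where Hormad2 was the only coding gene at a partner. This holds for the Lif bin alone. The bin of Uqcr10 and Zmat5 was in contact with 4 bins flagged in ESCs only in ESC control, the Lif bin not among them. It was in contact with 4 in ESC auxin and 2 in each NPC list, the Lif bin included.

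Some bins had no loop in either auxin list. The bin of Dusp13, a dual specificity phosphatase gene, had 0, 4, 0 and 12 loops, and that of an inner start of Acot11, an acyl-CoA thioesterase gene, 0, 1, 0 and 11. Qprt, an enzyme of NAD synthesis, had 0, 7, 0 and 11, and Ngp, a neutrophil granule protein gene, 0, 7, 0 and 8. The bin of the non-coding gene 4931429P17Rik had 0, 1, 0 and 13, with a contact to Id4, an inhibitor of basic helix-loop-helix factors, 250 kb away, of 43 reads in NPC control and 31 in ESC control. These bins were named because they were the lowest or most connected, so their values are a description. The bin of Cntfr, the receptor of ciliary neurotrophic factor, had only 8, 7, 3 and 3 short-range reads, but 9541, 8653, 5729 and 5942 reads covering it in the FitHiChIP lists, and its 3, 2, 3 and 4 loops are uncertain.

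**Figure D5:**
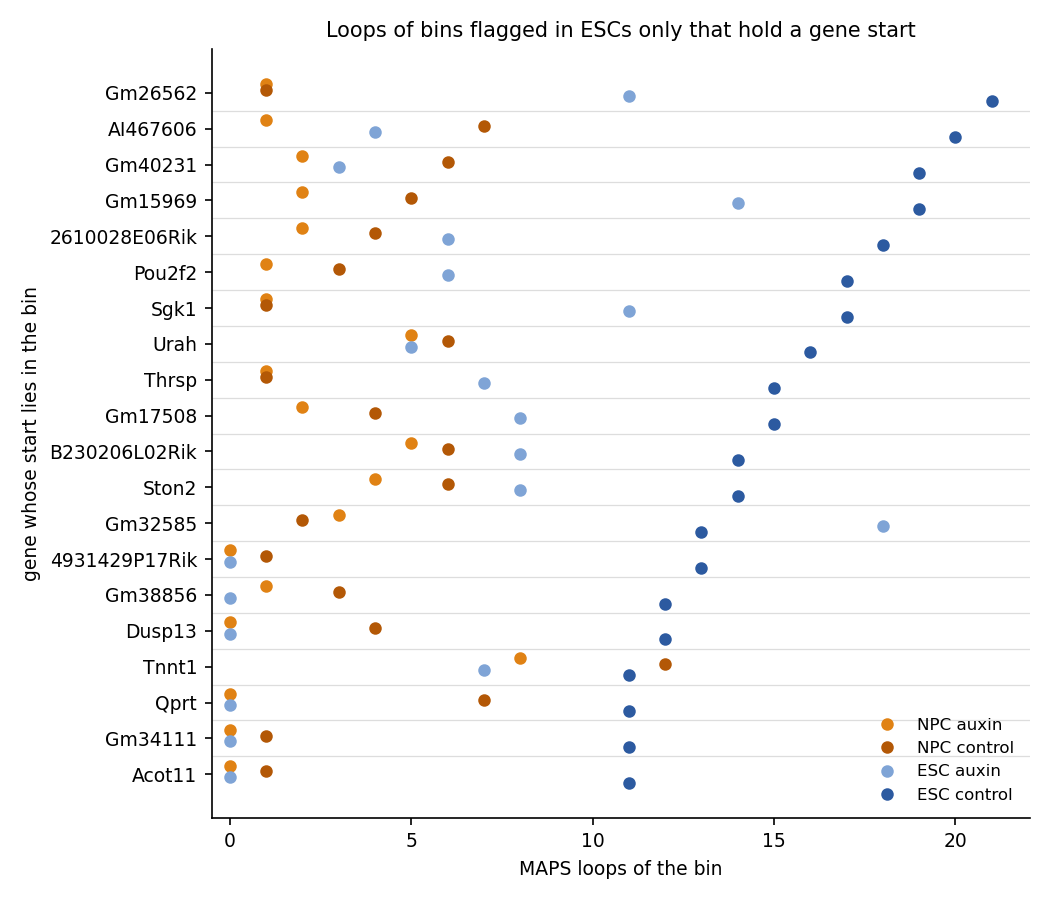
MAPS loops of the 20 named bins with a gene start that had the most ESC control loops, 1 row per bin and 1 point per list. ESC control has the most loops in 18 of the 20 rows, and Gm32585 and Tnnt1 are the others. The rows were chosen by their ESC control loops, and NPC lists allow these bins only flagged partners, so nothing is read from this count.

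The bins with the most ESC control loops of all held no coding start. One at chr15:83040001-83050000 had 4, 4, 21 and 31 loops, with partners at Tcf20 and Ndufa6. One within Syne3, at chr12:104930001-104940000, had 3, 5, 15 and 28 loops. It contacted Dicer1, which encodes the nuclease that makes mature microRNAs, with 59 reads in NPC control, 55 in ESC auxin and 60 in ESC control, and Gsc, a homeobox gene of the gastrula organizer, with 27, 23 and 33. One within Map3k1, at chr13:111780001-111790000, had 1, 0, 8 and 27 loops and contacted Il6st, 680 kb away, in NPC auxin (26 reads) and ESC auxin (20 reads). In NPC control the leading bin lay within Skap1, at chr11:96570001-96580000, with 14, 14, 6 and 17 loops. Its contact with Hoxb8, a homeobox gene that patterns the body axis, had 98 reads in NPC auxin, 141 in NPC control, 40 in ESC auxin and 38 in ESC control. The NPC counts of this contact were above the ESC counts, although its Skap1 anchor is flagged in ESCs only.

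Pluripotency genes were found as partners of these bins and not at their starts, and coding genes as a whole were also rare there. Of 30 naive and core pluripotency genes 17 had a promoter window, and 0 of the 17 had a start in a bin flagged in ESCs only, with 13 in bins flagged in both. Of all coding genes with a window 150 of 16457 (0.911%) had a start in a bin flagged in ESCs only. In ESC control 7 of the 17 were in contact with a bin flagged in ESCs only (Nanog, Sox2, Klf2, Tfcp2l1, Tcl1, Jarid2 and Mycn), against 2 in NPC auxin, 4 in NPC control and 2 in ESC auxin. Over all coding genes 5.77% were contacted in NPC auxin, 10.5% in NPC control, 5.53% in ESC auxin and 9.66% in ESC control. These shares include genes whose start bin was no anchor, whereas each of the 17 was an anchor in some list. Among bins with a coding start that were anchors of the list, 12.5, 17.3, 15.0 and 19.5% were contacted in the same order. Counting either gene end, which covers 28 of the 30, gave 4, 7, 4 and 10 genes in the 4 lists and placed an end of Nanog in a bin flagged in ESCs only.

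The contact of Sox2, a pluripotency and neural factor, with chr3:34750001-34760000, 110 kb downstream, was in every list. It had 47 reads in NPC auxin, 57 in NPC control, 62 in ESC auxin and 59 in ESC control. This bin lies where the Sox2 control region, an ESC enhancer, is known to lie. Nanog contacted a bin within Slc2a3, 90 kb away, with 29 reads in NPC control and 45 in ESC control, and was in neither auxin list. Jarid2, a subunit of Polycomb repressive complex PRC2, contacted a bin 180 kb away with 92 reads in NPC auxin, 83 in NPC control and 82 in ESC control. Klf2, Tcl1 and Tfcp2l1 had such contacts in ESC control alone, with 69, 30 and 20 reads. These partner contacts were chosen after their values were seen.

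Of 10 mesoderm and endoderm genes with a window, 5 were contacted in ESC control (Gsc, Mesp1, Pdgfra, Tbx6 and Cxcr4), against 1 in NPC auxin, 3 in NPC control and 3 in ESC auxin. Pdgfra, a growth factor receptor of mesoderm and primitive endoderm, contacted a bin 180 kb away with 77 reads in NPC control, 59 in ESC auxin and 59 in ESC control, and in NPC auxin it had no contact with these bins. Lhx1, a homeobox gene outside the lists that is needed for head formation, contacted 4 bins flagged in ESCs only, 180 to 270 kb away, in all 4 lists. The strongest had 107, 88, 125 and 86 reads in NPC auxin, NPC control, ESC auxin and ESC control. Of 15 neural progenitor genes, 1, 3, 1 and 2 were contacted in the 4 lists, and of 6 housekeeping genes 2, 1, 1 and 0. Of the formative epiblast genes (8) and the feeder fibroblast genes (5) none was contacted in any list by their starts. By either gene end, 1, 1, 0 and 2 of 12 formative and 1, 1, 1 and 1 of 10 fibroblast genes were, and 2, 4, 4 and 6 of 16 mesoderm and endoderm genes. Germline genes (12) had 0, 1, 1 and 1 contacted, trophoblast and 2-cell genes (7) had 1, 2, 1 and 1, neuron genes (7) had 0, 1, 0 and 1, and genes of the LIF and STAT3 pathway (10) had 2, 3, 3 and 2.

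Coding starts as a whole were partners more often in NPC lists, as the construction of the lists asks of flagged partners. A partner with a coding start was found for 53.5% of loop ends in NPC auxin, 51.8% in NPC control, 25.9% in ESC auxin and 21.8% in ESC control. For bins flagged in neither, which can pair only with flagged bins in every list, the shares were 56.1, 52.8, 47.2 and 44.8%. For bins flagged in both, which can pair with any bin in every list, they were 22.7, 17.6, 26.0 and 20.1%. In the ESC lists the bins flagged in ESCs only were thus close to the bins flagged in both. In ESC control 1456 bins with a coding start were in contact with a bin flagged in ESCs only, 61 of them with 3 or more. Marker genes cannot show how well the flags separate the cell types, since a start bin that is no anchor has no flag. Of 7 ESC markers with a window 5 had a flagged start bin in NPC lists and 6 in ESC lists, and of 7 neural precursor markers 6 had one in each. The start bins not counted were no anchor in those lists, and none was an unflagged anchor.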

How the data were processed

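PLAC-seq loop lists of 4 groups were analysed, 1 per group from each of MAPS and FitHiChIP. BWA, Picard and the mm10 build stand in the submitters' processing notes, without versions. Per the file headers, the deposited MAPS lists give for each pair of bins a read count, the ratio of that count to the expected count, an FDR (an adjusted p-value) and a peak flag per anchor. In the deposited FitHiChIP lists each pair has a contact count, the coverage (a signal) of each anchor, a q-value and the fraction of contacts expected. In every deposited MAPS list counts were at least 12. The sources used here do not say if a group's 2 samples were pooled for calling, and p-values over samples were not possible.

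Total contacts per group, from the deposited FitHiChIP values, were 59961568 in NPC auxin, 52337421 in NPC control, 48307867 in ESC auxin and 47519917 in ESC control. Lists were read with pandas 2.3.3, and intervals came from SciPy 1.17.1. The functions were tested on simulated lists. Loops were called again where both bins were the same. Changes in loops per bin used a pseudocount of 1 and were set against the ratio of the list totals, for bins that had 5 or more loops in the pair of lists. Gene starts came from RefSeq promoter windows of GRCm38.p6 (the same chromosomes as mm10), and gene bodies from a RefSeq gene table. The bins and gene lists were chosen with earlier results of these data known. Named genes start in a bin flagged in ESCs only and are the 10 bins with most loops in each control list, the 5 lowest and 5 highest changes with auxin in each cell type, with at most 3 symbols per bin, and every gene of the lists in such a bin. Alternatives were the FitHiChIP lists, a stricter FDR, a tolerance of 1 bin, 1 loop per cluster and other definitions of the bins, fold and gene starts.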

Additional observations from a re-analysis of the deposited data

Results flagged for a closer look

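In 4 of the 33 named bins with a gene start, the number of loops differed with auxin in opposite directions in the NPC and ESC lists, and this difference was not tested. The Cpn2 bin had 4 loops in NPC auxin and 1 in NPC control (3 more), and 4 in ESC auxin and 7 in ESC control (a difference of -3). The Gm26812 bin had 5 and 2 in NPC auxin and NPC control (3 more) and 4 and 5 in ESC auxin and ESC control (-1). The Cntfr bin, with very few short-range reads, had 3 and 2 in NPC auxin and NPC control (1 more) and 3 and 4 in ESC auxin and ESC control (-1). The 1700021F07Rik bin had 0 and 2 in NPC auxin and NPC control (a difference of -2) and 6 and 4 in ESC auxin and ESC control (2 more). Over all 1964 bins flagged in ESCs only, 301 (15.3%) differed in opposite directions in this way. The share over all anchor bins was not computed, so 15.3% is not read as particular to these bins.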

How the results depend on the processing

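Of 114 values under alternative settings, 34 stayed within the counting interval or the spread between autosomes and 80 moved. The bins numbered 698 when required to be an anchor in all 4 lists and 1141 without those next to a bin flagged in NPCs. Mean loops per bin in NPC auxin, NPC control, ESC auxin and ESC control were 0.136, 0.463, 0.982 and 1.99 in the FitHiChIP lists, 0.461, 1.18, 0.692 and 2.13 at an FDR under 1e-04, 0.171, 0.280, 0.356 and 0.555 with 1 loop per cluster, and 2.09, 2.82, 3.71 and 6.50 for bins in all 4 lists, so ESC control was highest in each.

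The share of loops found again in NPC auxin was 20.4% with FitHiChIP, 23.2% at the stricter FDR, 53.4% with a tolerance of 1 bin, 15.8% with 1 loop per cluster, 48.2% for bins in all 4 lists and 26.4% without neighbours flagged in NPCs. In ESC auxin the shares were 29.3, 18.6, 48.7, 12.3, 32.6 and 20.5% in the same order. For ESC control loops in NPC control they were 18.1, 27.9, 60.6, 12.7 and 26.7% under the first 5 of these, and with partners flagged in both 25.4, 58.5, 84.3, 30.9 and 66.5%, against 67.8, 64.5, 82.2, 29.6 and 63.3% of loops between bins flagged in both, so the order turned in the last 3. The high shares of bins in all 4 lists follow from that requirement. The bins flagged in both were not held to it, so nothing is read from the order there. The cause of the difference between callers was not tested.

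Partners were flagged in 84.0% of ESC auxin loop ends with FitHiChIP, 64.6% at the stricter FDR, 59.5% with 1 loop per cluster and 53.4% without neighbours flagged in NPCs; in ESC control they were in 78.4% with FitHiChIP, 52.8% at the stricter FDR and 43.5% without such neighbours. Median distances were 450 kb in NPC auxin and 290 kb in NPC control with FitHiChIP, and 240 kb in ESC auxin and 210 kb in ESC control. At the stricter FDR they were 210, 190, 200 and 190 kb in the 4 lists, and 190 kb in NPC control with 1 loop per cluster.

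Contact count ratios (log2) were -0.09 in NPCs and -0.10 in ESCs with auxin, and 0.02 between the control lists, with FitHiChIP; uncentred they were -0.08, -0.13 and 0.00. The value between the control lists thus changed sign with the caller.

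For NPC auxin against NPC control the share of bins lower was 15.5% at 1.5-fold, 0% of 53 bins with 10 loops and 0% of 25 with FitHiChIP, against 22.4, 11.4 and 8.10% of all bins, and the share higher was 40.9% at 1.5-fold and 28.3% with 10 loops, against 34.0 and 15.1%. For ESC auxin against ESC control the share lower was 26.1% at 1.5-fold, 13.4% with 10 loops and 24.4% with a pseudocount of 0.5, against 19.5, 10.4 and 17.9% of all bins, and the share higher was 30.7% at 1.5-fold and 3.95% with FitHiChIP, against 40.6 and 7.58%. For NPC control against ESC control the share lower was 86.3% at 1.5-fold, 85.5% with 10 loops, 80.0% with the pseudocount and 84.2% with FitHiChIP, against 32.9, 17.3, 24.4 and 16.4% of all bins, and the share higher 0.855%, 0%, 0.665% and 0%, against 20.8, 13.9, 16.8 and 13.0%. A gene start became 40.8% with any gene end and 32.1% within 5 kb.

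No paired analysis was possible because each group has 1 list per caller with no replicate columns, and leaving out a replicate was not possible either. Loops below the callers' thresholds are not listed, so a loop missing from a list is not shown to be absent.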
